A study of Mus musculus with 8 samples.

Results

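The 9 genes of cortical excitatory neurons that were followed in whole brain tissue after stroke are Tbr1, Neurod6, Neurod2, Fezf2, Bcl11b, Mef2c, Cux2, Slc30a3 and Nrn1. They are the 9 listed symbols to which a probe on the array could be tied by its RefSeq accession, of 22911 genes with such a probe, and 11 probes measured them. All 9 had a value on every tissue array.

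The tissue arrays held RNA of slice 3 of the brain, taken on the ischemic side at day 14. There were 4 groups with 1 array each: wild type (WT) mice after sham surgery, DEREG mice after sham surgery, WT mice after stroke (ischemia) and DEREG mice after stroke. DEREG mice carry a transgene driven by Foxp3 control sequences that puts the diphtheria toxin receptor on regulatory T cells (Treg). The labels used here do not say whether toxin was given, how many animals an array stands for, how old they were, or how stroke was induced. Foxp3 was not well above background on any of the 4 tissue arrays, so these arrays give no check of the genotype labels. A further 4 arrays held CD4 T cells, Treg and nonTreg, from WT ischemic brain and from spleen of untreated mice.

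Excitatory neurons of the cerebral cortex use glutamate as their transmitter and are arranged in layers, and their identity is set by transcription factors. Tbr1, Neurod2 and Neurod6 belong to the shared program of these neurons, with Tbr1 strongest in deep layers and in early-born cells. Fezf2 and Bcl11b (also known as Ctip2) specify deep-layer neurons that project out of the cortex, and Cux2 marks the upper layers. Some of the genes are not limited to these cells. Bcl11b is also a defining factor of striatal projection neurons and of T cells, and Mef2c is also expressed in microglia, endothelial cells and interneurons.

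On the tissue arrays 62.0% (WT sham) to 65.1% (WT ischemia) of probes passed the scanner software's call of being well above background. The signal given for a gene is the scanner's processed intensity of its probe. Differences are in log2 or as folds after each array was scaled by its 75th percentile, which lay between 411 and 439. With 1 array a group there was no replicate and no test, so every difference describes these arrays only, and their number limits the precision. Repeated spots of the same probe had a median SD of 0.040 to 0.045 (log2), a technical error only. Each difference was taken within 1 probe, between arrays, except where the median over a gene's probes is named. Summed levels of a list add scaled signals of different probes, so the brightest weigh most.

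After stroke all 9 genes were lower than after sham surgery, in WT and in DEREG mice, where 55.8% and 52.2% of all genes were below 0. The median difference was -2.35 (5.08-fold lower) in WT and -3.89 (14.8-fold lower) in DEREG. In WT 7 of 9 genes were at least 2-fold lower, where 18.4% of all 16973 genes compared were. In DEREG all 9 were at least 2-fold lower, against 22.1% of 17161 genes. A difference of at least 4-fold was reached by 5 of 9 in WT and 8 of 9 in DEREG, against 3.49% and 9.77% of all genes. Between the sham arrays no gene of the 9 was 2-fold apart, against 0.447% of all genes lower and 0.588% higher in DEREG. The largest sham difference was 1.20-fold, for Bcl11b and Slc30a3 in opposite directions. With another background correction (normexp, whose added offset of 50 shrinks the differences of dim probes) the median was -1.71 in WT and -2.48 in DEREG, and with the median over a gene's probes it was -1.95 and -3.22. Fewer neurons and less RNA per neuron cannot be told apart in such tissue.

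**Figure D1:**
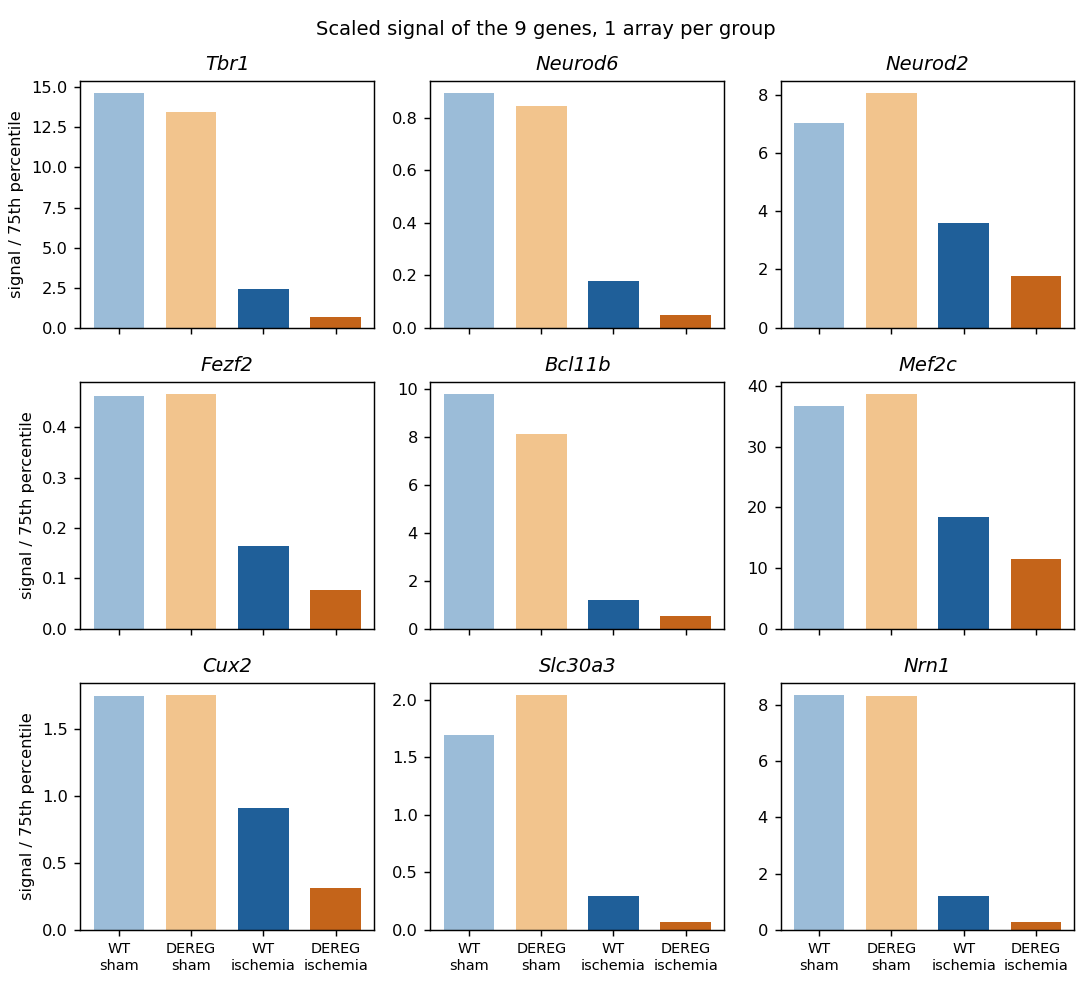
Scaled signal (processed intensity divided by the array's 75th percentile, linear axis from 0) of the 9 genes on the 4 tissue arrays, a bar per array and no error bars because each group had 1 array. In every panel the DEREG ischemia bar is the lowest and both sham bars stand above both ischemia bars.

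The shared identity factors come first. Tbr1, a T-box transcription factor, read 6032 (WT) and 5919.7 (DEREG) after sham surgery and 1024 (WT) and 269 (DEREG) after stroke. Both sham arrays were close together and the DEREG ischemia array was the lowest. After scaling, Tbr1 was 6.01-fold lower after stroke in WT and 20.7-fold lower in DEREG. A further, much dimmer Tbr1 probe read 58.0, 57.3, 23.8 and 12.9 on the same arrays, the last not well above background. It kept the order but gave a smaller difference, 2.49-fold in WT and at least 4.19-fold in DEREG, where "at least" marks a bound set by the array's background.

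Neurod6, a basic helix-loop-helix factor of maturing excitatory neurons, had sham signals of 368 in WT and 372 in DEREG and stroke signals of 74.0 and 20.2. Neurod6 was 5.08-fold lower after stroke in WT and 17.3-fold lower in DEREG, or 3.27-fold and 5.58-fold with normexp. Its relative Neurod2, which drives the maturation and synapses of the same neurons, measured 2889 and 3545 with sham surgery, WT first, and 1514 and 733 with stroke. The sham arrays were again above both ischemia arrays, but the distance was smaller: Neurod2 was 1.95-fold lower in WT and 4.55-fold lower in DEREG.

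The upstream sequences of the genes were searched for the motifs of these 3 factors and of Mef2c. Whether the factors act there was not tested. RefSeq promoter entries (build GRCm38.p6) were found for 8 of 9 genes, as 12 windows of the 250 bases before an annotated start. An E-box, the site class of basic helix-loop-helix factors (CANNTG, which reads the same on both strands), was present in 7 of 12 windows, against 66.2% of all 32851 windows. The NeuroD-type form CAGATG, which is a kind of E-box, was found on either strand in 3 of 12 windows (of Neurod2, Mef2c and Cux2), against 14.4% of all. The T-box core GGTGTGA was found in 1 of 12, upstream of Slc30a3, against 3.33%. No share was set against chance, and a match is only a match of letters. The windows of the 3 factor genes are shown with E-boxes in capitals, and that of Slc30a3 with the T-box core in capitals, 5′ to 3′ on the gene's strand. The Tbr1 window is chr2:61804203-61804452, plus strand, that of Neurod6 chr6:55681264-55681513, minus strand, that of Neurod2 chr11:98329646-98329895, minus strand, and that of Slc30a3 chr5:31093528-31093777, minus strand.
Tbr1: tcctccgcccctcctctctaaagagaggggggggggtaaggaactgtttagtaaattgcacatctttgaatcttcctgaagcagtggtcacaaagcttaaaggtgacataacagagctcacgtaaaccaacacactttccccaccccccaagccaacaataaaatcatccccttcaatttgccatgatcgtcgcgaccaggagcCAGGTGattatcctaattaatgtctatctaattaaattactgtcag
Neurod6: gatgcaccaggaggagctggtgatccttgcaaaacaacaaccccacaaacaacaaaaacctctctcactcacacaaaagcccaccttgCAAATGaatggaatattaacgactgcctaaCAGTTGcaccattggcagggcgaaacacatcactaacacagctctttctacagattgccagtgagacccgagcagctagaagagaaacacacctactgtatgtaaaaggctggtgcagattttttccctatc
Neurod2: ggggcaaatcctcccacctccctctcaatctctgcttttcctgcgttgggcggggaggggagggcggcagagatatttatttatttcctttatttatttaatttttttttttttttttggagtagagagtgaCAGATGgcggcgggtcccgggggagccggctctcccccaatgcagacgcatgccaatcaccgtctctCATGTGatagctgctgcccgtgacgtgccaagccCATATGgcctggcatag
Slc30a3: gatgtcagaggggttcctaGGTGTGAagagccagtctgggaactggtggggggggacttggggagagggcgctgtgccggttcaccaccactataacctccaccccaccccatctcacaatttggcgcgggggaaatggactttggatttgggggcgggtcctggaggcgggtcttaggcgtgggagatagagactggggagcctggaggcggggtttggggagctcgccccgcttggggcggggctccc

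The Tbr1 window holds 1 E-box, that of Neurod6 holds 2 and that of Neurod2 holds 3, of which 1 is CAGATG.

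The factors of deep-layer output neurons differed from each other. Bcl11b, a zinc finger factor, read 4027 (WT) and 3569.6 (DEREG) after sham surgery and 504 (WT) and 227 (DEREG) after stroke. Bcl11b had the largest difference of the 9 in WT, 8.17-fold lower, and was 14.8-fold lower in DEREG. Fezf2, the zinc finger factor upstream of Bcl11b in these neurons, had sham signals of 190.1 in WT and 205 in DEREG and stroke signals of 68.8 and 31.5. Fezf2 was 2.82-fold lower in WT and 6.13-fold lower in DEREG, or 1.98-fold and 2.74-fold with normexp. Fezf2 thus lay well behind Bcl11b in both genotypes. Bcl11b is also expressed in striatal projection neurons and T cells, and their part in its values was not tested.

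Cux2, Mef2c and Neurod2 had the smallest differences, although with normexp Fezf2 had the smallest in DEREG (-1.46). Cux2, a homeodomain factor of upper-layer neurons, measured 718 and 771 with sham surgery, WT first, and 383 and 129.9 with stroke. It was 1.91-fold lower in WT and 5.59-fold lower in DEREG. Mef2c, an activity-dependent factor that shapes excitatory synapse number, read 15134 (WT) and 17022 (DEREG) after sham surgery and 7722 (WT) and 4747 (DEREG) after stroke. It was 2-fold lower in WT and 3.38-fold lower in DEREG, and a further Mef2c probe gave 2.05-fold and 3.38-fold. Microglia, which also express Mef2c, were represented by 12 marker genes, of which 10 were at least 2-fold higher in WT (median 2.71) and 11 in DEREG (median 3.09). Their summed scaled level was 175 and 154 in the sham arrays and 842 and 983 in the ischemia arrays, and their part in the Mef2c value was not tested.

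The genes for a synaptic vesicle transporter and for a membrane-anchored protein were among the lowest. Slc30a3 encodes ZnT3, the transporter that loads zinc into synaptic vesicles of a class of glutamatergic terminals. It had sham signals of 697 in WT and 897 in DEREG and stroke signals of 125 and 26.3. Slc30a3 was 5.71-fold lower in WT and 32.2-fold lower in DEREG, the largest difference of the 9 there. With normexp it was 3.95-fold and 10.6-fold lower and in DEREG came after Nrn1, Tbr1 and Bcl11b. Nrn1 encodes neuritin, a membrane-anchored protein induced by neuronal activity that promotes neurite growth. It measured 3442 and 3651 with sham surgery, WT first, and 511 and 113 with stroke, which made it 6.88-fold lower in WT and 30.5-fold lower in DEREG (19.1-fold with normexp). For both genes only 3.11% and 3.28% of the sham level was left in DEREG, against 17.5% and 14.5% in WT.

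The order of the genes was similar in the genotypes. From the largest difference, the order in WT was Bcl11b, Nrn1, Tbr1, Slc30a3, Neurod6, Fezf2, Mef2c, Neurod2 and Cux2. In DEREG it was Slc30a3, Nrn1, Tbr1, Neurod6, Bcl11b, Fezf2, Cux2, Neurod2 and Mef2c. Neighbours closer than the spread between spots (0.090 for such a comparison, log2) were Tbr1 and Slc30a3, Mef2c and Neurod2, and Neurod2 and Cux2 in WT, and Slc30a3 and Nrn1 in DEREG. Both contrasts share no array, and over the 9 genes their differences had a Pearson's r of 0.91 and a Spearman's rho of 0.72. This is across genes measured on the same arrays, which are not independent replicates. In both genotypes the same 5 genes (Bcl11b, Nrn1, Tbr1, Slc30a3 and Neurod6) were lower than the other 4. Of the 9 genes 7 were at least 2-fold lower in both contrasts, as were 17.4% of the 16725 genes compared in both. Those genes made up 94.1% of the genes lower in WT and 77.1% of those lower in DEREG.

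**Figure D2:**
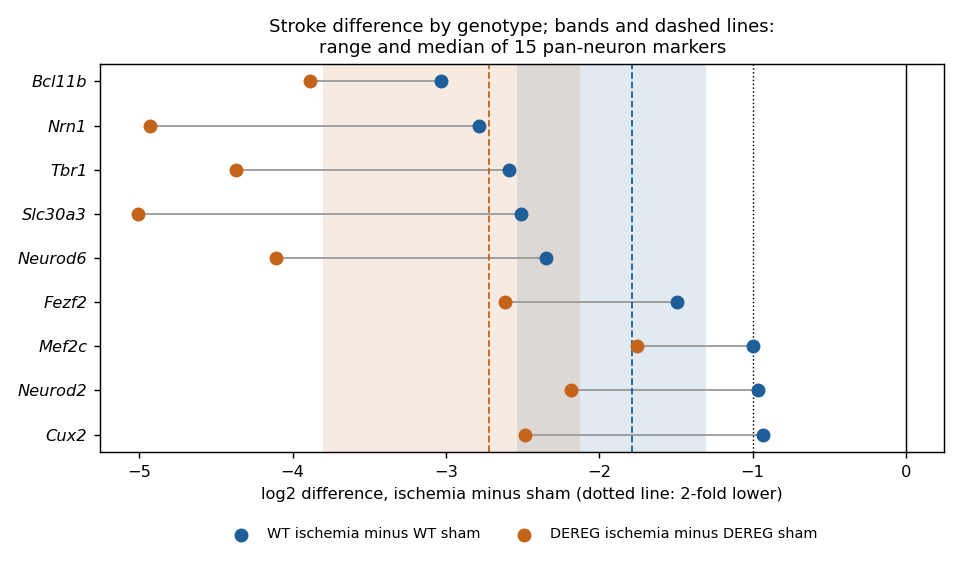
Log2 difference between ischemia and sham for each of the 9 genes, in WT (blue) and DEREG (orange), a point per pair of arrays. Shaded bands and dashed lines give the range and median of 15 pan-neuron markers in the same pair; all 9 orange points lie left of their blue points, and the points of 5 genes lie left of the orange band.

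General neuron markers were lower as well, and the 9 genes spread to both sides of them. All 15 pan-neuron markers were at least 2-fold lower in both genotypes, with differences from -2.54 (Nefm) to -1.30 (Map2) in WT and a median of -1.79. In DEREG their median was -2.72, with a range of -3.80 to -2.13. In WT Bcl11b, Nrn1 and Tbr1 lay below that range, and Mef2c, Neurod2 and Cux2 lay above it. In DEREG 5 genes lay below the range (Slc30a3, Nrn1, Tbr1, Neurod6 and Bcl11b), and Mef2c lay above it. Relative to the pan-neuron median, Slc30a3 was 1.65-fold lower in WT and 4.88-fold lower in DEREG, and Nrn1 1.99-fold and 4.62-fold lower. These places depend on the background correction. With normexp 2 genes lay below the range in each genotype (Bcl11b and Nrn1 in WT, Tbr1 and Nrn1 in DEREG), and Slc30a3 was 1.17-fold and 1.61-fold below the pan-neuron median. With the median over probes the genes below the range were Bcl11b and Nrn1 in WT, and Neurod6, Slc30a3 and Nrn1 in DEREG. With 1 array a group, whether the 9 genes differ from neuron markers in general could not be tested.

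After stroke, the DEREG array was lower than the WT array for all 9 genes, as it was for 41.3% of all genes. Of the 9 genes 8 were at least 2-fold lower, where 5.37% of 16861 genes compared were, and the median difference was -1.54. Slc30a3 was 4.67-fold lower in DEREG, Nrn1 4.46-fold, Tbr1 3.74-fold, Neurod6 3.60-fold and Cux2 2.90-fold. Bcl11b (2.18-fold), Fezf2 (2.15-fold) and Neurod2 (2.03-fold) were just past 2-fold, and Mef2c was 1.60-fold lower. With normexp 4 of the 9 were at least 2-fold lower (Tbr1 3.26-fold, Nrn1 3.20-fold, Cux2 2.24-fold and Slc30a3 2.21-fold), with a median of -0.98. Neurod6 was then 1.69-fold lower and Fezf2 1.40-fold. The stroke difference in DEREG minus that in WT was below 0 for all 9 genes (44.1% of all), with a median of -1.55. It reached 2-fold for 7 of 9, against 5.21% of 15120 genes, and was -0.86 for Bcl11b and -0.75 for Mef2c. In all 9 genes both sham arrays were above both ischemia arrays, as in 50.5% of the genes measured on all 4. All 9 genes also had the order of both sham arrays above WT ischemia above DEREG ischemia, which 35.1% of those 15120 genes had.

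The ischemia arrays also differed in markers of the choroid plexus and of T cells. Markers of the choroid plexus, the epithelium that makes cerebrospinal fluid in the ventricles, had a summed scaled level of 22.8 (WT) and 22.3 (DEREG) after sham surgery, and of 105 and 21.4 after stroke. None of the 8 markers was at 0, and 1 of 8 was not well above background on each array except WT ischemia. Ttr, which encodes transthyretin, read 91.7, 359.9, 26647 and 491 on the arrays in that order. Among T cell markers 7 of 11 were at least 2-fold higher in DEREG ischemia than in WT ischemia, led by Cd3g (3.04), Cd8a (2.90) and Cd3d (2.82), where 2.36% of all genes were higher. The summed level of the 11 markers was 197 and 188 in sham and 73.0 and 65.4 after stroke, a sum that includes Thy1, and 3 of the 11 were not well above background in either sham array. The part of differing slice content or infiltrating cells in the difference between the ischemia arrays was not tested.

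**Figure D3:**
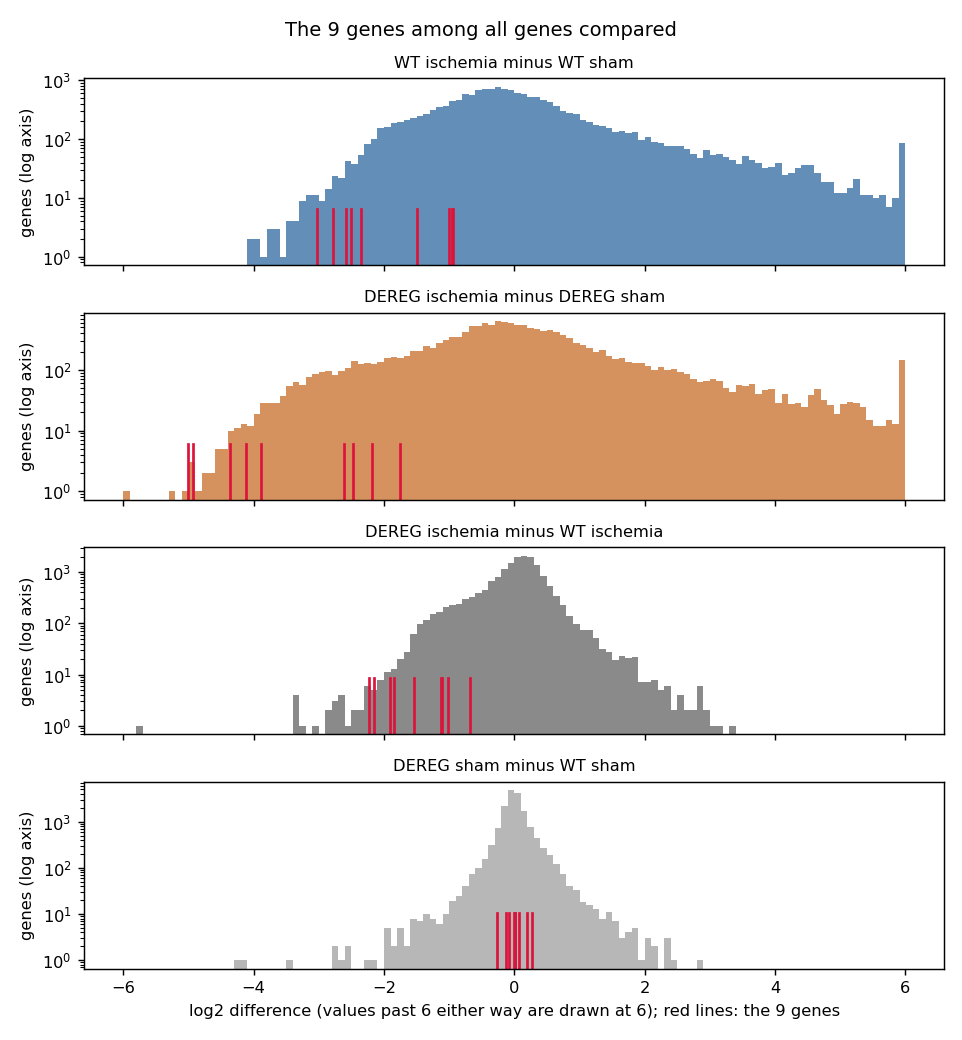
Number of genes (log axis) by log2 difference for 4 comparisons, with the 9 genes as red lines. The red lines lie on the low side in the upper 3 panels and near 0, within 0.27, in the sham panel.

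Other genes of cortical excitatory neurons were lower too. Of 20 further genes of excitatory neurons in general, 18 were at least 2-fold lower in WT (median -1.76), and 19 of 19 compared were in DEREG (median -3.05). Slc17a7, encoding the vesicular glutamate transporter VGLUT1, was at -2.39 in WT and -4.29 in DEREG, and Chn1 at -2.42 and -3.88. Slc17a6 (VGLUT2), which glutamatergic neurons outside the cortex also express, was at -2.81 and -3.93. The part of those neurons in its value was not tested.

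Of 14 further upper-layer genes with a probe, 9 were at least 2-fold lower in WT (median -1.14) and 11 in DEREG (median -2.15). Calb1, encoding the calcium buffer calbindin, was at -2.49 and -3.70, and Lamp5 at -2.33 and -4.16. Calb1 and Lamp5 were lower than Cux2 in both genotypes. Of 20 further deep-layer genes, 12 were at least 2-fold lower in WT (median -1.20) and 12 in DEREG (median -1.44). Lmo3 (-3.25 and -4.54), Pcp4 (-3.21 and -3.99) and Hs3st4 (-2.68 and -3.30) were the lowest in WT, while Ccn2 (-0.03 and 0.07) and Crym (-0.27 and -0.87) stayed within 2-fold. Calb1 and Pcp4 are also expressed in striatal projection neurons, and the part of those neurons in their values was not tested. Neither layer list was at least 2-fold lower in every gene, and whether lists differ was not tested. In all 3 lists 0 genes were 2-fold higher in either genotype, where 18.8% and 22.4% of all genes were.

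Activity-regulated genes, to which Nrn1 belongs by function, went both ways. Of 16 such genes 7 were at least 2-fold lower and 1 higher in WT (median -0.78), and 10 were lower and 1 higher in DEREG (median -1.82). Npas4, a factor induced by neuronal activity, was at -2.17 in WT and -3.45 in DEREG, and Nptx2, a secreted synaptic pentraxin, at -2.11 and -3.75. Gadd45b was higher, at 1.46 and 2.42.

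Close relatives of the 9 genes did not all share their difference. Of 19 relatives with a probe, 15 could be compared in WT, 4 of them at least 2-fold lower and 1 at least 2-fold higher, where 18.4% and 18.8% of all genes were. In DEREG 17 could be compared, 5 of them lower and 2 higher, where 22.1% and 22.4% of all genes were. Bcl11a, the relative of Bcl11b, was at -1.95 in WT and -3.13 in DEREG. Neurod1 was at -1.69 in WT and at least 16.5-fold lower in DEREG, where its probe was not well above background. In contrast Cux1, the broadly expressed relative of Cux2, was at 0.28 and 0.41, and Mef2a and Fezf1 stayed within 2-fold in both. The zinc transporter relatives of Slc30a3 were mixed. Slc30a1, Slc30a5, Slc30a6 and Slc30a7 stayed within 2-fold in both genotypes, while Slc30a4 was at -1.09 and -0.98 and Slc30a10 at -0.85 and -1.68. Slc30a9 was just under 2-fold lower in WT and at -1.26 in DEREG. Nrn1l, the relative of Nrn1, was at -1.71 and -1.88. Tbx21, a T-box factor of T cells and natural killer cells, was higher, at 3.39 in DEREG and at least 3.73-fold in WT.

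**Figure D4:**
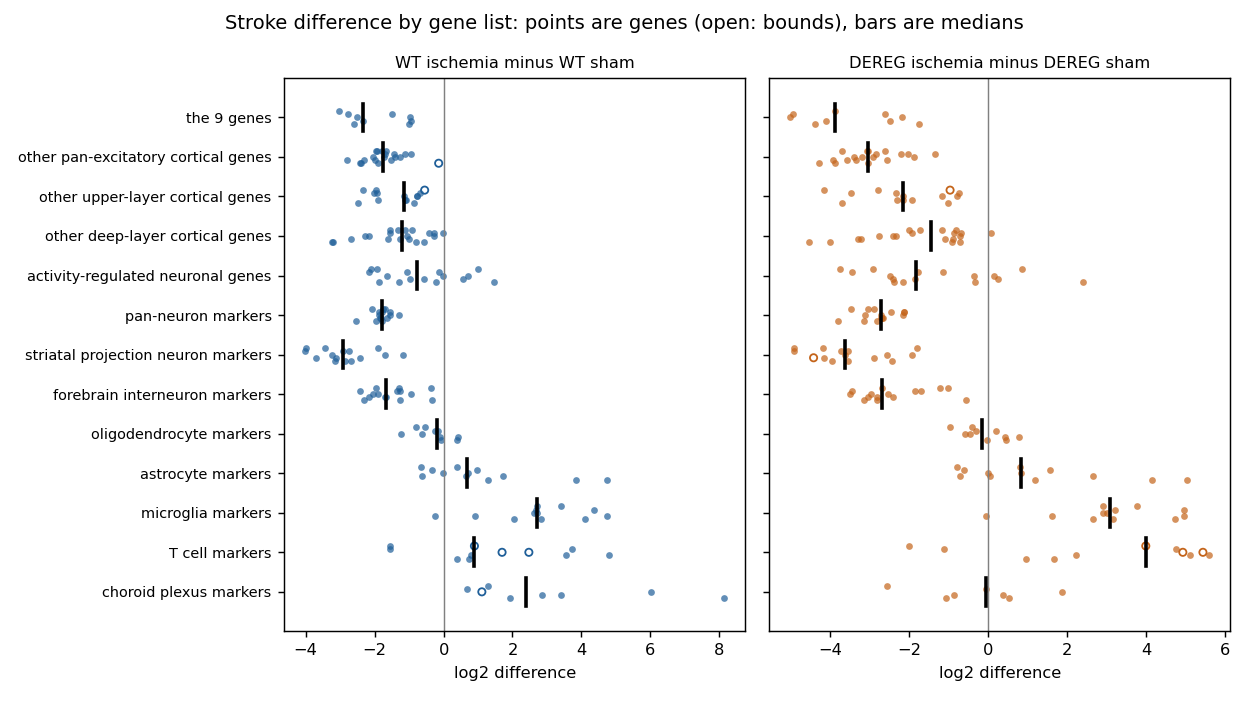
Log2 difference between ischemia and sham for the genes of each list in WT (left) and DEREG (right); points are genes, open points bounds and black bars medians. Each neuronal list drawn has its median below 0 in both panels (the thalamic and hypothalamic markers are not drawn), and the microglia and T cell lists lie mostly above 0.

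Neurons of other kinds were compared because striatal markers were well above background in both sham arrays. All 15 striatal projection neuron markers were at least 2-fold lower in both genotypes, with medians of -2.93 in WT and -3.63 in DEREG. Ido1 was at -4.01 and -4.91, and the dopamine receptor gene Drd1 at -3.16 and -3.96. Bcl11b, which these neurons share, was at -3.03 and -3.89. Of 15 forebrain interneuron markers 12 were at least 2-fold lower in WT (median -1.66) and 14 in DEREG (median -2.69). Between the ischemia arrays 8 of the 9 cortical genes were at least 2-fold lower in DEREG (4 with normexp), against 5.37% of all genes. So were 7 of 15 striatal and 5 of 15 interneuron markers, with medians of -1.54 for the 9 genes and -0.95 for both lists. Of the further cortical lists, 16 of 19 general excitatory, 3 of 13 upper-layer and 4 of 20 deep-layer genes were. Their medians were -1.23, -0.76 and -0.43. Of the pan-neuron markers 9 of 15 were, with a median of -1.16. Between the sham arrays the medians were -0.32 for the striatal list, -0.06 for the interneuron list and 0.01 for the 9 genes. In the difference of differences 1 of 14 striatal and 5 of 15 interneuron markers were at least 2-fold lower (medians -0.78 and -0.82). There 7 of the 9 genes were, against 5.21% of all genes. The difference between these lists was not tested. Thalamic and hypothalamic markers did not share this direction. Of 13 compared in WT 1 was at least 2-fold lower and 3 higher (median 0.14), and of 14 in DEREG 4 were lower and 5 higher (median 0.44). The list ran from -1.11 to 3.51 in WT and from -2.54 to 3.82 in DEREG. The hypothalamic hormone gene Avp was at -0.87 in WT and 3.11 in DEREG. Prkcd, listed as a thalamic marker, was the highest, at 3.51 and 3.82.

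Glial lists did not follow the neuronal lists. Of 10 oligodendrocyte markers 1 (Opalin, -1.22) was at least 2-fold lower in WT and 0 in DEREG, with medians of -0.20 and -0.16. Of 12 astrocyte markers 4 were at least 2-fold higher in WT and 5 in DEREG, led by Vim (4.75 and 5.05) and Gfap (3.83 and 4.14). All 10 macrophage and monocyte markers were at least 2-fold higher in both genotypes.

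T cells express Bcl11b, and T cell markers were higher after stroke. Of 11 T cell markers 5 were at least 2-fold higher and 2 lower in WT, and 8 higher and 2 lower in DEREG. The lower genes were Thy1, which neurons also express, and Cd4, and why they were lower was not tested. Bcl11b was lower in the same arrays, and the part of T cell RNA in its remaining signal was not tested.

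The genes nearest the median profile of the 9 over the 4 arrays were named by the Euclidean distance of their centred log2 values to it. Of 15120 genes measured on all 4 arrays, the 8 nearest outside the list included Trim54, Gabrb2, Erc2, Gsg1l, Fam189a1, Tafa1 and Car10, at distances of 0.13 to 0.15. Gabrb2 encodes a subunit of the GABA-A receptor, Erc2 a protein of the presynaptic active zone and Gsg1l an auxiliary subunit of AMPA receptors. Gabrb2 read 8628 (WT) and 9041 (DEREG) after sham surgery and 1733 (WT) and 579 (DEREG) after stroke. Neurod6, at a distance of 0.25 (rank 52), was the nearest of the 9 genes themselves, and Mef2c, at 1.85 (rank 1981), the farthest. Other genes thus lay nearer that profile than any of the 9.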

How the data were processed

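RNA of 8 mouse samples was measured on 8 one-colour Agilent arrays, 1 sample an array. Per the file headers and the submitters' processing notes, the software behind the deposited scanner files was Agilent Feature Extraction 10.7.1.1, and their processed intensity is corrected for background within each array and not normalized between arrays. The deposited series table holds a linear signal that the values showed to be that intensity divided by a constant for each array (99.95% to 99.97% of probes within 0.1%), with column medians of 0.110 to 0.123. The files name no aligner, and the array design cites another genome build than the RefSeq table, which served for names alone.

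Of 56605 probes, 32994 were named through their RefSeq accession. Spots of a probe were averaged, and outlier spots were left out where others remained. No spot was saturated. Values were log2-transformed and scaled by the 75th percentile of all probes. Where a gene had several probes, that of highest mean over the tissue arrays stood for it, and genes below background on both arrays of a pair were left out. Where 1 side was dim the difference is a bound, set at the array's lowest signal well above background or at the probe's own signal if higher. Differences of differences used genes measured on all 4 arrays. The counts take genes from 2-fold upward. No test was run, since each group had 1 array. The counting was tested on simulated data.

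The 9 genes and all lists were chosen with earlier results of these data known. By rule, genes named from a list are among its 4 largest stroke differences in WT or at least 2-fold there, and genes are named from the 8 most like the median profile. Some genes that this rule takes are not reported here. Ccn2, Crym, Cux1, Mef2a, Fezf1, Cd8a, Avp and the Slc30a relatives other than Slc30a4 fall outside it and were chosen after their values were seen. Alternatives were normexp (limma 3.58.1, offset 50, on the median spot signals because the files used hold no mean signals), quantile normalization, another probe set or the median for scaling, other filters, the median over probes, and the series table. Python 3.11.15 and R 4.3.3 were used.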

Additional observations from a re-analysis of the deposited data

Results flagged for a closer look

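Some of the 9 genes were also well above background on the 4 CD4 T cell arrays, which the tissue comparisons do not use and which have no control tissue. Bcl11b, a factor of T cell identity, measured 2663 (Treg) and 3595 (nonTreg) in brain, and 3983 and 3987 in spleen. Nrn1 measured 369.7 and 281 in brain and 254 and 57.0 in spleen, Treg first. Mef2c measured 345 (Treg) and 296 (nonTreg) in brain and stayed below the background call in both spleen arrays. Neurod2 was marginally above background in spleen nonTreg alone, at 12.3. Tbr1 (by its brighter probe), Neurod6, Fezf2, Cux2 and Slc30a3 were not well above background on any T cell array. These are single arrays with no replicate.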

How the results depend on the processing

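Each value was recomputed under 8 alternatives, and a value counted as moved when it shifted by more than the spread between spots (0.064, log2). All 9 genes stayed below 0 in both stroke contrasts and between the ischemia arrays under every alternative, and of 360 values for single genes 79 moved and 281 did not. The 281 include values that could not move. All 9 genes were well above background on every tissue array, so the filters could not change them. The median over probes could change only Tbr1 and Mef2c. The series table holds the same intensities divided by a constant, so it could only shift all genes of an array together. No value of 2-fold or more changed sign. The sign changed in 5 values, all between the sham arrays and at most 0.083 in size (Neurod6 and Fezf2 with normexp, Nrn1 with quantile normalization, Fezf2 and Cux2 with the median as scaling point). With normexp the median over the 9 genes was -1.71 in WT, -2.48 in DEREG and -0.98 between the ischemia arrays, with -1.20 for the difference of differences. Normexp left 4 of 9 genes in place of 8 at least 2-fold lower between the ischemia arrays. The median over a gene's probes gave -1.95, -3.22, -1.38 and -1.27 in that order. In WT the median was -2.42 with quantile normalization and -2.26 with the percentile over probes detected on all arrays. The median as scaling point gave -2.51 in WT, -1.47 between the ischemia arrays and -1.44 for the difference of differences. That scaling moved the median of all genes by -0.17 in WT, and relative to all genes the 9 lay at -2.20 in place of -2.21. It also moved the lower share of genes past 2-fold in the difference of differences from 85.2% to 73.5%. Over all genes the lower count between the ischemia arrays was 905, or 408 with normexp and 1396 with no filter. For the difference of differences it was 788, or 411 and 1757. Between the sham arrays 73 genes were lower and 96 higher, or 2 and 11 with normexp, 392 and 542 with no filter, and 15 and 40 among genes measured on all arrays. Neurod2, Mef2c and Cux2 lay near 2-fold in WT, so the count of 7 rests on where that line falls; with normexp it was 5, without Fezf2 and Mef2c. Only Tbr1 and Mef2c had more than 1 probe, so agreement between probes could not be checked for the other genes. In WT the fold between sham and ischemia differed by more than 1.5 times between the Tbr1 probes, but not between the Mef2c probes. The causes were not tested. No paired analysis was possible because each group has 1 array.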
